A study of Mus musculus with 6 samples.

Results

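Kinesins are motor proteins that use ATP to move along microtubules or to take microtubules apart. The genes described here are the 45 rows of the expression table whose symbol begins with Kif and a number, with Kifc and a number, or is Kifap3, out of 30037 rows that name a gene. By known role, 14 rows are mitotic kinesins, 18 are transport kinesins with the associated protein Kifap3, 6 act in cilia or signalling, 4 have mixed or other roles and 3 are pseudogenes. Poly(A) RNA was measured in the L-GMP fraction, leukaemia cells with features of myeloid progenitors, which had been sorted out of marrow from AML (acute myeloid leukaemia) mice aged 8 to 10 weeks. One group was wild type (WT) and the other Prmt6-/-, with 3 libraries each. Prmt6 encodes a protein arginine methyltransferase. The sources used here do not say what drove the leukaemia, nor whether libraries of a genotype came from separate animals. All p-values therefore reflect library-to-library spread, which may be technical.

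Mitotic kinesins build and separate the spindle, move chromosomes to the spindle equator and complete cell division, and their transcripts accumulate in cells approaching mitosis. Transport kinesins carry vesicles, mitochondria, endosomes and ciliary cargo in dividing and resting cells alike, mostly towards the plus ends of microtubules. Leukaemic progenitors divide, so both classes are at work in the same cells. In these bulk libraries, fewer cells of a type and less RNA per cell cannot be told apart.

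Promoter sequences are shown first for 6 members on which the results turn, namely Kif23, Kif11 and Kif18a, which fell, Kif18b, the paralogue of Kif18a that did not pass the test, and Kif3a and Kifap3, which rose. Mitotic genes are known for a promoter element called CHR, with the letters TTTGAA or TTCGAA, bound by the MuvB core of the DREAM complex, and for CCAAT boxes bound by NF-Y. Each line gives the 150 bases before the RefSeq start (build GRCm38.p6) on the gene's strand, 5′ to 3′. Capitals mark matches to either CHR form or to CCAAT on either strand, so that TTCAAA and ATTGG are matches on the opposite strand. No marked match overlaps another.
Kif23: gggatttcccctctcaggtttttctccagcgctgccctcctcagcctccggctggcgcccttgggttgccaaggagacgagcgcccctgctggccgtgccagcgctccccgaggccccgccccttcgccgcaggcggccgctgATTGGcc
Kif11: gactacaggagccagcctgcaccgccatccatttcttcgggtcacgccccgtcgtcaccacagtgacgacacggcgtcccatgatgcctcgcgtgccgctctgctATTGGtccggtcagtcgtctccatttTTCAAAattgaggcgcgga
Kif18a: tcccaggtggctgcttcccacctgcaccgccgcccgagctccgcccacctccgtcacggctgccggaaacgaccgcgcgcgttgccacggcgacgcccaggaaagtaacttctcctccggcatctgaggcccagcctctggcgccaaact
Kif18b: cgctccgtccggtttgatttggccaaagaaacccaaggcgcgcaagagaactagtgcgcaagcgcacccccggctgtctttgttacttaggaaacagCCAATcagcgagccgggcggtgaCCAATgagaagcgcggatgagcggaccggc
Kif3a: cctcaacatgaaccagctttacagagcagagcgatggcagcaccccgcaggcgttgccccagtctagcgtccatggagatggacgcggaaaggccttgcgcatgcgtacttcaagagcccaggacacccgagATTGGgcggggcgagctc
Kifap3: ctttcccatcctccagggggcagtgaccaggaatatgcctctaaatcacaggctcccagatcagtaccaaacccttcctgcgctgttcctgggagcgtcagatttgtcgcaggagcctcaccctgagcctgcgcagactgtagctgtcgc
The regions are chr9:61946800-61946949 on the minus strand for Kif23, chr19:37376232-37376381 on the plus strand for Kif11, chr2:109280588-109280737 on the plus strand for Kif18a, chr11:102925125-102925274 on the minus strand for Kif18b, chr11:53567219-53567368 on the plus strand for Kif3a and chr1:163779433-163779582 on the plus strand for Kifap3.

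The RefSeq table holds promoters for 34 of the 45 kinesin rows, counted here over 250 bases before to 50 bases after the start. A CHR match stood in the promoters of 11 of 13 mitotic kinesins and 1 of 12 transport kinesins, against 19.2% of all 32851 promoters in the table. A kinesin counts if any of its promoters holds a match, whereas the shares of all are per promoter. These 13 mitotic kinesins include Kif2b, which was not tested, and lack Kif20a, which has no promoter there. CCAAT on either strand stood in 9 of the 13 mitotic and 4 of the 12 transport promoters, against 37.4% of all promoters. Both together stood in 8 mitotic and 0 transport promoters, against 7.52% of all. Among mitotic kinesins the CHR match was held by 4 of the 5 genes with a promoter that fell and by 7 of the 7 that did not pass. Kif18a, whose mean difference on the deposited log2 scale was the most negative of the family, held neither motif in this window. In the authors' deposited table the log2 fold change of Kif13a is more negative, -1.33 against -1.17 for Kif18a. Kif18b held a TTTGAA that begins at base 4 of the transcript and 2 CCAAT matches before its start. A match is only a match of letters, and binding was not measured.

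The values are on a log2 scale, normalized by the authors, and differences are Prmt6-/- minus wild type on that scale. Sequencing depth is unknown because the table holds no counts. Library medians of the tested genes lay between 7.72 and 7.75. Prmt6, the targeted gene, stood at 7.82, 7.60 and 7.41 in wild-type cells and at 5.42, 5.46 and 5.48 in Prmt6-/- cells (limma adjusted p = 3.57e-06). Of 11 listed L-GMP markers 0 were listed at 0, and their wild-type means were between 10.14 and 16.56. The granule protease genes Elane and Ctsg and the leukaemia-associated homeobox gene Meis1 rose by 1.45, 0.51 and 0.49 (limma adjusted p = 3.65e-06, 0.00386 and 0.00179), while the Fc receptor gene Fcgr2b and the pan-leukocyte gene Ptprc fell by 0.88 and 0.74 (0.000507 and 7.16e-05). The progenitor genes Kit, Cd34 and Fcgr3 did not pass, at -0.29, 0.03 and 0.02, although the authors' deposited table calls Kit lower (adjusted p = 0.0481). The granule genes Mpo and Prtn3 did not pass, at -1.11 and 0.21 (limma adjusted p = 0.139 and 0.051), nor did Hoxa9, at -0.05. Mpo passed as lower with the replicate number as a block (limma adjusted p = 0.00959) and without Prmt6-/- library 3 (0.0115). Prtn3 passed as higher in the authors' deposited table (adjusted p = 0.0254) and after quantile normalization (limma adjusted p = 0.0069), among other alternatives. Ctsg, Kit, Cd34, Fcgr3, Mpo, Prtn3 and Hoxa9 were named after their values were seen. The part of these differences between the populations in the kinesin values was not tested. Of 38 kinesin rows with enough signal to be tested, 9 passed the limma test as lower and 7 as higher, at a Benjamini-Hochberg adjusted p under 0.05 over all 15454 tested genes. The background over those genes was 18.0% lower and 15.0% higher, and kinesins as a whole, with 23.7% and 18.4%, lay near it. That balance depends on the scaling: after quantile normalization 15.4% of all genes passed as lower and 18.3% as higher, with 7 kinesins each way. Of the other 7 rows, Kif2b and Kif12 were listed at 0 in every library, and Kif5a, Kif6, Kif27, Kif22-ps and Kifc5c-ps lay under the low-value filter.

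Mitotic kinesins that passed the test were lower, and transport kinesins went both ways. All 13 tested mitotic kinesins had a negative difference, 12 of them after quantile normalization or without wild-type library 1 or Prmt6-/- library 2 or 3. That shared direction depends on the roles chosen. Kif2a, which acts at spindle poles but was counted among the other rows, rose by 0.40 (limma adjusted p = 0.00133). Cenpe, a kinetochore kinesin outside the Kif series, fell by 0.44 (limma adjusted p = 0.000325). Of the 13, 6 (46.2%) passed as lower and 0 as higher, against 18.0% and 15.0% of all tested genes. Kif18a, Kif23, Kif2c, Kif11, Kif20a and Kif22 were those that fell. Of the 17 tested transport kinesins 3 (17.6%) fell and 4 (23.5%) rose, against the same 18.0% and 15.0%, so that the share that fell lay near the background. Their differences were negative for 7 and positive for 10. Over all 15454 tested genes 7359 differences were negative and 8095 positive. The median difference was -0.23 for mitotic kinesins, 0.03 for transport kinesins and 0.01 for all tested genes, a description and not a test between the classes. After quantile normalization the mitotic median was -0.147, and 5 mitotic kinesins passed as lower and 0 as higher. More genes were called lower at high normalized values, which also depend on transcript length. In the 4 upper of 8 equal bins of tested genes by mean value, which hold 11 of the 13 mitotic kinesins, the share of all genes called lower was 22.7%, 23.9%, 29.1% and 33.9%.

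**Figure D1:**
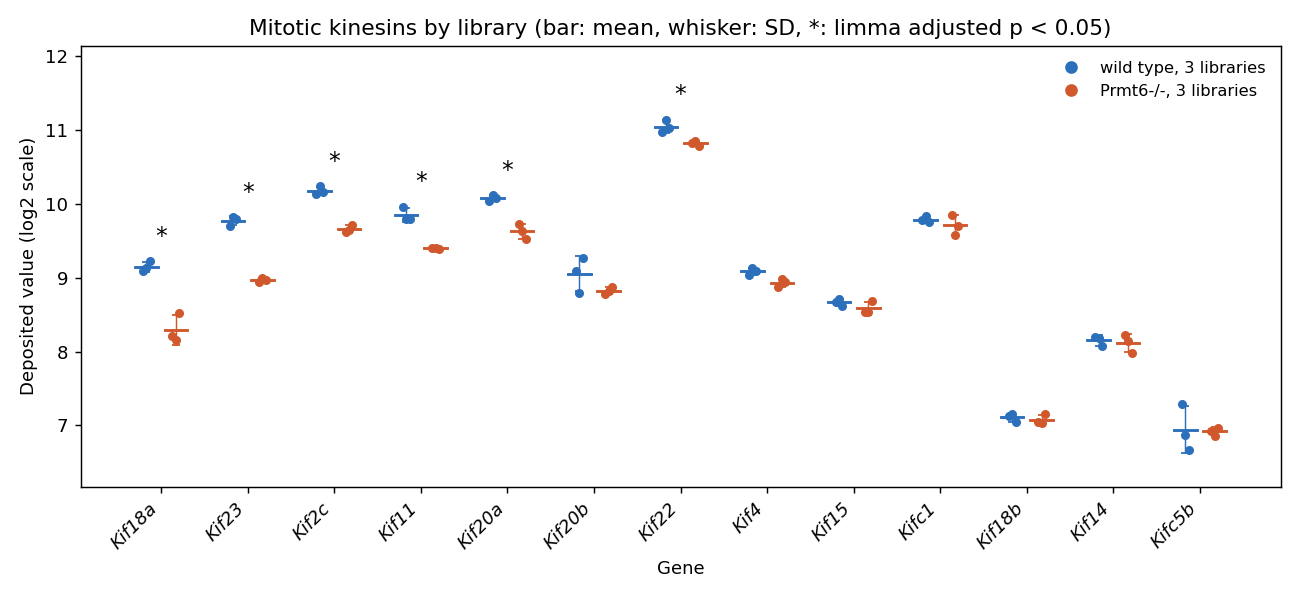
Deposited log2 value (vertical axis) of the 13 tested mitotic kinesins in each library, wild type in blue and Prmt6-/- in orange, with mean and SD (n = 3) and genes ordered by difference; an asterisk marks a limma adjusted p under 0.05. The groups stand apart, with Prmt6-/- lower, at 7 genes (Kif18a, Kif23, Kif2c, Kif11, Kif20a, Kif22 and Kif4), against 24.4% of all tested genes, and overlap at the other 6.

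Kif23 and Kif20a act late in division. Kif23, the motor of the centralspindlin complex that organises the midzone for cytokinesis (chr9:61915905-61946774, GRCm38, protein-coding), stood at 9.70, 9.82 and 9.80 in wild-type cells and at 8.94, 8.99 and 8.97 in Prmt6-/- cells. Its groups lay far apart relative to their spread, and the difference of -0.81 (SE 0.0588, limma adjusted p = 3.00e-05) corresponds to a 1.75-fold lower value on the deposited scale. Kif20a, which brings the chromosomal passenger complex to the midzone (chr18:34624613-34633277), stood at 10.04, 10.12 and 10.08 against 9.73, 9.63 and 9.53. All 3 Prmt6-/- values lay below the wild type, and Kif20a fell by 0.45 (SE 0.0659, limma adjusted p = 0.000929). The opposite-strand gene Cdc23, which overlaps Kif20a, had a difference of -0.01 (limma adjusted p = 0.935).

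Kif18a, Kif2c, Kif11 and Kif22 act on the spindle and chromosomes. Kif18a, a motor that dampens chromosome movements at the spindle equator (chr2:109280738-109341747), stood at 9.09, 9.13 and 9.22 in wild-type cells and at 8.21, 8.15 and 8.52 in Prmt6-/- cells. The groups did not overlap, Prmt6-/- library 3 being the closest to the wild type, and the difference was -0.85 (SE 0.0979, limma adjusted p = 0.000252), a 1.81-fold lower value. Mettl15, on the opposite strand and overlapping Kif18a, was also lower, at -0.26 (limma adjusted p = 0.0123). Kif2c, a depolymerase that corrects faulty kinetochore attachments (chr4:117159639-117182639), stood at 10.14, 10.24 and 10.16 against 9.62, 9.65 and 9.72. Kif2c was lower in every Prmt6-/- library, with a difference of -0.51 (SE 0.0577, limma adjusted p = 0.000231).

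Kif11, the motor that pushes spindle poles apart and the target of several antimitotic compounds (chr19:37376403-37421859), stood at 9.96, 9.79 and 9.79 in wild-type cells and at 9.40, 9.40 and 9.39 in Prmt6-/- cells. Its Prmt6-/- values nearly coincided, and Kif11 fell by 0.45 (SE 0.0632, limma adjusted p = 0.00076). Kif22, a chromokinesin that pushes chromosome arms outward (chr7:127027729-127042471), stood at 10.97, 11.14 and 11.03 against 10.82, 10.85 and 10.79. The groups lay close together without overlapping, and the difference of -0.23 (SE 0.0584, limma adjusted p = 0.0156) was the smallest among the mitotic kinesins that fell. The Kif22 call was lost without wild-type library 2 (limma adjusted p = 0.0604) and after quantile normalization (limma adjusted p = 0.0723).

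The other 7 tested mitotic kinesins did not pass. Kif4, a chromokinesin that also sets the length of midzone microtubules with Prc1, stood at 9.04, 9.13 and 9.09 against 8.87, 8.98 and 8.94, without overlap, at a difference of -0.16 (95% interval -0.29 to -0.02, limma adjusted p = 0.0783). Kif20b, a cytokinesis motor, stood at 9.09, 8.80 and 9.27 in wild-type cells and at 8.78, 8.82 and 8.88 in Prmt6-/- cells. Wild-type library 2 lay among the Prmt6-/- values, and without it Kif20b passed as lower (difference -0.354, limma adjusted p = 0.0151, against 0.144 with all libraries). Kif15, which can stand in for Kif11 in holding the spindle poles apart, had a difference of -0.08 (95% interval -0.23 to 0.07). Kifc1, a minus-end-directed motor that focuses spindle poles, also stood at -0.08 (95% interval -0.25 to 0.09), and Kifc5b, its near-identical copy with which reads could be shared, at -0.02 (95% interval -0.33 to 0.29). Kif14, which works with citron kinase in cytokinesis, had a difference of -0.04 (95% interval -0.22 to 0.14), and Kif18b, which shortens astral microtubules, one of -0.04 (95% interval -0.19 to 0.12). These intervals lie above the -0.45 of Kif11 and Kif20a on the same scale for all but Kif20b. The scale shrinks differences more at lower values, so an equal change would read smaller for Kifc5b and Kif18b. Their wild-type means were 6.94 and 7.11, against 9.85 for Kif11 and 10.08 for Kif20a. The comparison therefore does not bound the change of Kifc5b, whose interval is wide.

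On the deposited scale the largest rises were those of Kifap3 and Kif3a, which belong to kinesin-2. This is the motor of intraflagellar transport and of vesicle traffic, in which Kif3a pairs with Kif3b or Kif3c and binds the non-motor subunit Kifap3. Among kinesins called higher in the authors' deposited table, Kif9 has the largest log2 fold change, 0.98 against 0.95 for Kifap3 and 0.72 for Kif3a. Kifap3 (chr1:163779583-163917109) stood at 8.63, 8.60 and 8.62 in wild-type cells and at 9.48, 9.25 and 9.22 in Prmt6-/- cells. All 3 wild-type values were nearly equal and well below the Prmt6-/- values, a difference of 0.70 (SE 0.0765, limma adjusted p = 0.0002) or a 1.62-fold higher value. Kif3a (chr11:53567379-53601967) stood at 8.88, 8.98 and 8.84 against 9.54, 9.45 and 9.37. The Kif3a groups were separate, with a difference of 0.55 (SE 0.0676, limma adjusted p = 0.000361). Kif3c (chr12:3365132-3406494) stood at 7.10, 7.15 and 7.26 against 7.54, 7.46 and 7.39 and rose by 0.29 (SE 0.0714, limma adjusted p = 0.0127). Kif3b did not pass, with 7.76, 7.55 and 7.57 against 7.68, 7.74 and 7.70 and a difference of 0.08 (95% interval -0.09 to 0.25). Kif17, a kinesin-2 motor that works without these partners, had 8.23, 8.18 and 8.26 against 7.95, 8.09 and 8.03 and passed narrowly as lower (difference -0.19, limma adjusted p = 0.0445). That call was lost in every fit that left out 1 library, with adjusted p of 0.0964, 0.0702 and 0.106 without wild-type libraries 1, 2 and 3 and of 0.133, 0.0584 and 0.0877 without Prmt6-/- libraries 1, 2 and 3. It was also lost with the replicate number as a block (0.0695), without the low-value filter (0.0591), after quantile normalization (0.0975) and in the authors' deposited table (0.105).

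**Figure D2:**
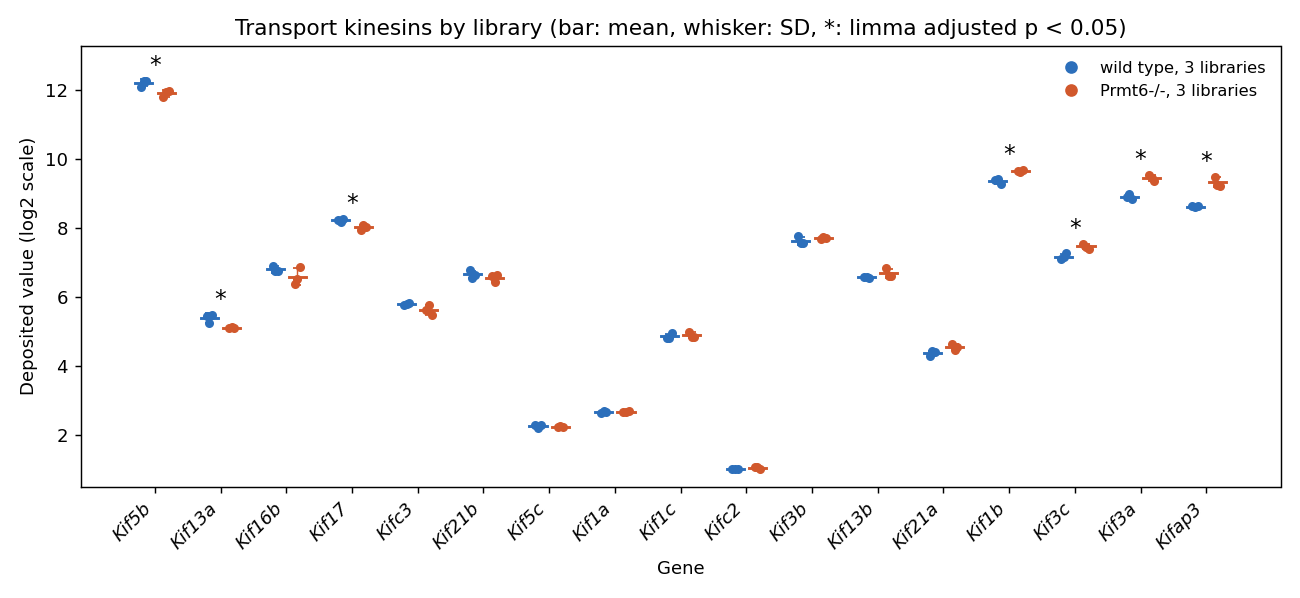
Deposited log2 value (vertical axis) of the 17 tested transport kinesins in each library, wild type in blue and Prmt6-/- in orange, with mean and SD (n = 3) and genes ordered by difference; an asterisk marks a limma adjusted p under 0.05. Kif5b is lower in the Prmt6-/- libraries, and Kifap3 and Kif3a at the right end are higher.

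Conventional kinesin moved the other way. Kif5b, the widely expressed heavy chain of kinesin-1 that carries mitochondria and vesicles (chr18:6201002-6242174), stood at 12.08, 12.26 and 12.26 in wild-type cells and at 11.78, 11.94 and 11.96 in Prmt6-/- cells. The ranges did not meet, and Kif5b fell by 0.31 (SE 0.0701, limma adjusted p = 0.00906). Its neuronal relatives were near the floor of the scale, Kif5c at 2.27 and Kif5a at 0.56 in the wild type, and Kif5a was not tested. Kif13a, which carries endosomal cargo such as the mannose 6-phosphate receptor, stood at 5.46, 5.24 and 5.48 against 5.10, 5.14 and 5.10. Kif13a fell by 0.28 (SE 0.0707, limma adjusted p = 0.0153), a call that was lost without wild-type library 1 (limma adjusted p = 0.0559). Without that library 1 transport kinesin, Kif5b, passed as lower in place of 3.

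In the kinesin-3 family Kif1b, a carrier of mitochondria and vesicle precursors (chr4:149176319-149307693), rose by 0.29 (SE 0.0622, limma adjusted p = 0.00695), with 9.39, 9.41 and 9.26 in wild-type cells and 9.64, 9.61 and 9.67 in Prmt6-/- cells. Its groups were separate. The related Kif1c, at 4.87 ± 0.07 against 4.90 ± 0.09 (SD, n = 3), and Kif1a, at 2.69 ± 0.02 in both genotypes, did not pass. Kif16b, a motor of early endosomes, stood at 6.91, 6.75 and 6.74 against 6.38, 6.53 and 6.87, so that Prmt6-/- library 3 lay within the wild-type range. Without that library Kif16b passed as lower (difference -0.344, limma adjusted p = 0.021). Kif21a, at 0.16, and the minus-end motor Kifc3, at -0.18, passed only without Prmt6-/- library 2 (limma adjusted p = 0.0374 and 0.0359). Kifc2, at 0.04, passed only without Prmt6-/- library 3 (limma adjusted p = 0.00426). The Kifc2 values lay near the floor of the scale, with means of 1.02 in the wild type and 1.06 in the Prmt6-/- libraries. Kif13b, at 0.11, Kif21b, at -0.09, and Kif5c, at -0.02, did not pass with all libraries.

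Outside the mitotic and transport classes, 2 of 4 tested cilium and signalling kinesins, 1 of 3 other rows and 0 of 1 pseudogene passed as higher. In these groups 0 passed as lower, against 15.0% higher and 18.0% lower over all tested genes. The groups are too small to show a trend. Kif2a, a depolymerase of the same family as Kif2c that acts at spindle poles and in neurons (chr13:106958996-107022126), stood at 7.78, 7.85 and 7.79 in wild-type cells and at 8.16, 8.25 and 8.18 in Prmt6-/- cells. The groups were apart by more than their spread, and Kif2a rose by 0.40 (SE 0.0618, limma adjusted p = 0.00133). Dimt1, on the opposite strand, differed by -0.16 (limma adjusted p = 0.125). Kif24, which restrains cilium formation at the mother centriole (chr4:41390745-41464887), stood at 8.11, 8.24 and 8.13 against 8.55, 8.49 and 8.45 and rose by 0.33 (SE 0.065, limma adjusted p = 0.00453). Kif9, a motor of motile cilia and sperm tails (chr9:110476958-110525179), stood at 5.76, 5.78 and 5.73 against 6.0, 6.14 and 5.99, separate in every library, and rose by 0.29 (SE 0.0631, limma adjusted p = 0.00749). Kif7, which works in Hedgehog signalling, and Kif19a, which limits cilium length, had differences of 0.02 and 0.05 and did not pass. Kif26a, Kif26b and the pseudogene Kif4-ps had group means between 1.10 and 2.69 and did not pass either.

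**Figure D3:**
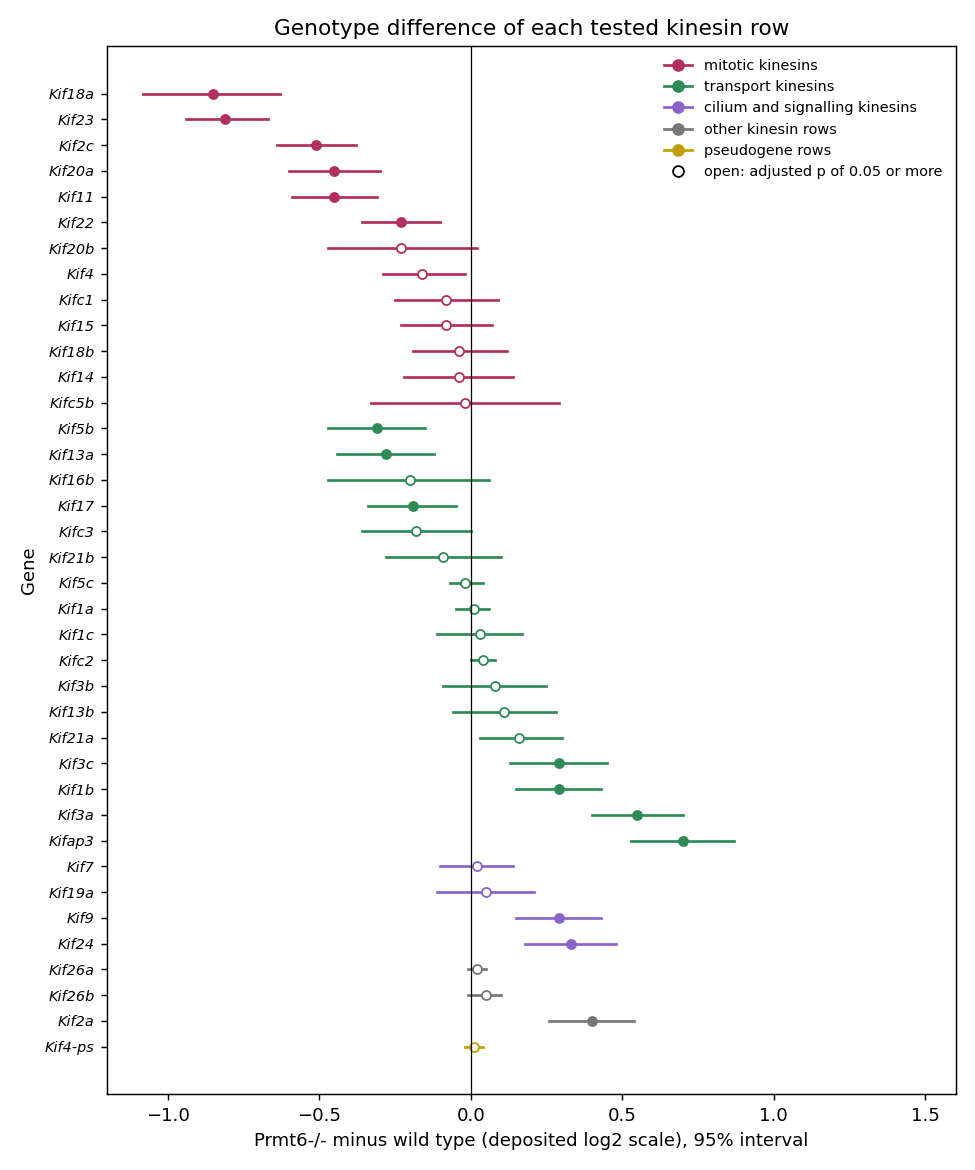
Difference between Prmt6-/- and wild type (horizontal axis, deposited log2 scale) with its 95% interval for each of the 38 tested kinesin rows, coloured by role, filled where the limma adjusted p was under 0.05. Mitotic kinesins run from -0.85 at Kif18a to -0.02 at Kifc5b, and transport kinesins from -0.31 at Kif5b to 0.70 at Kifap3.

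Close relatives were set against each other within a library. The gap between paralogues was compared between genotypes for 8 pairs with an exact two-sided permutation test, whose smallest p with 3 against 3 libraries is 0.1. Kif18a minus Kif18b was 2.04 ± 0.13 in the wild type and 1.22 ± 0.13 (SD, n = 3) in the Prmt6-/- libraries, so that the gap changed by -0.82 (exact p = 0.1, 0.114 adjusted over the 8 pairs). Kif2a minus Kif2c was -2.38 ± 0.02 and -1.47 ± 0.07, a change of 0.91 with the same exact p = 0.1. For Kif3a minus Kif3b the gap moved from 1.27 ± 0.15 to 1.75 ± 0.10, a change of 0.47 (exact p = 0.1). Kif20a minus Kif20b overlapped between genotypes, with a change of -0.22 (exact p = 0.3). The gaps of Kif13a minus Kif13b, Kif1b minus Kif1c, Kif21a minus Kif21b and Kif5b minus Kif5c changed by -0.39, 0.26, 0.26 and -0.29 (each exact p = 0.1), but each of these pairs holds a gene at a low value, whose differences the scale shrinks. None of the 8 could pass 0.05 in this design.

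The deposited scale shrinks differences at low values. For each of the 16 kinesins called here, the log2 fold change in the authors' deposited table is larger in size than the difference on the deposited scale. The ratio of that difference to the fold change in the authors' deposited table rose with the mean value, from 0.209 for Kif13a and 0.295 for Kif9 to 0.866 for Kif22 and 0.903 for Kif5b. In the authors' deposited table Kif13a has a log2 fold change of -1.33 (adjusted p = 0.00579) and Kif9 one of 0.98 (adjusted p = 0.0067). The authors' deposited table gives Kif18a -1.17, Kif23 -1.03, Kifap3 0.95 and Kif3a 0.72, and it calls 15 of the 16, Kif17 being the exception, all in the same direction. Over all tested genes it calls 17.5% lower and 13.6% higher. For Kif21a the authors' deposited table lists 1.22 (adjusted p = 0.0814) against 0.16 here, so that an interval on the deposited scale does not bound the change of genes at such low values.

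**Figure D4:**
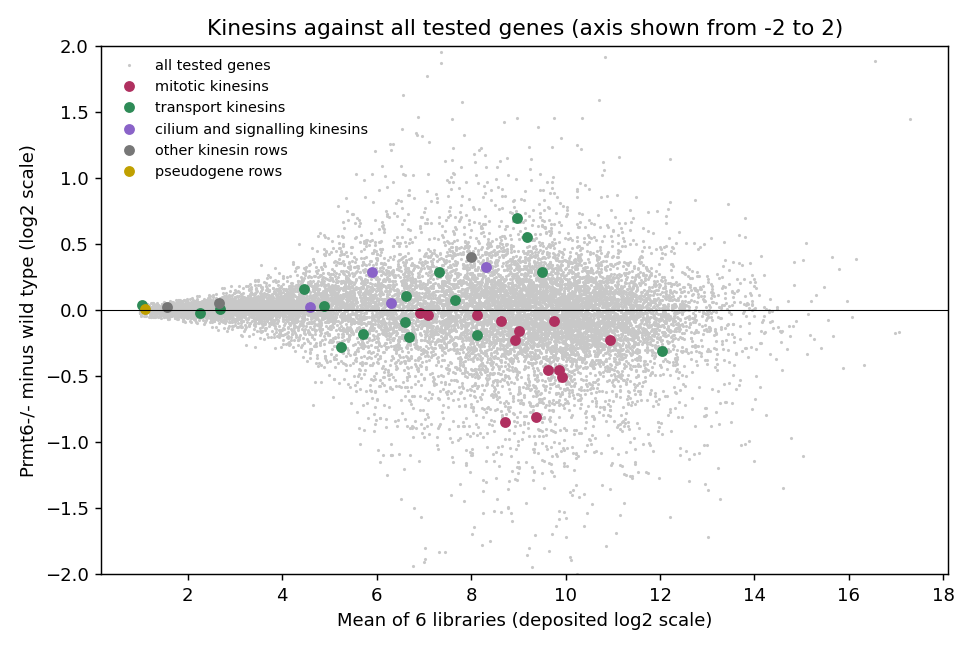
Difference between Prmt6-/- and wild type (vertical axis, log2 scale, shown from -2 to 2) against the mean of the 6 libraries (horizontal axis, log2 scale) for all 15454 tested genes in grey and the kinesins coloured by role. Differences narrow towards 0 at low values, where Kif1a, Kif5c, Kifc2 and Kif26a lie, and the mitotic kinesins sit above a mean of 6 and below 0, 12 of the 13 below 0 after quantile normalization.

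Transcripts of many proteins that act with the mitotic kinesins were lower too. Of 18 listed partners 12 (66.7%) fell and 1 (5.56%) rose, against 18.0% lower and 15.0% higher over all tested genes, with a median of -0.37. All lie in the 4 upper of the 8 bins by mean value, where 22.7% to 33.9% of all genes were called lower. After quantile normalization 11 partners were lower and 1 higher. Birc5, a subunit of the chromosomal passenger complex at -0.16, lost its call in 7 of 13 alternatives (limma adjusted p = 0.0517 to 0.352). Nusap1, a microtubule bundler, fell by 1.53, the microtubule polymerase Ckap5 by 0.95, and the kinase Aurka by 0.55 (limma adjusted p between 3.47e-05 and 0.000124). Cenpe, a kinetochore kinesin whose symbol falls outside the Kif series, stood at 9.95, 10.00 and 9.97 against 9.51, 9.56 and 9.53 and fell by 0.44 (limma adjusted p = 0.000325). Citron kinase (Cit), the partner of Kif14, was the one that rose, by 0.43 (limma adjusted p = 0.000783), and Racgap1, the partner of Kif23 in centralspindlin, differed by -0.11 (limma adjusted p = 0.165). Birc5, Cit and Racgap1 were named after their values were seen. Among 10 proliferation genes outside the motors 6 (60.0%) fell and 0 rose, against the same background, with a median of -0.23. These genes lie in the same upper bins. Ccnb2, at -0.24, and Ccna2, at -0.23, lost their calls in 6 and 4 of the 13 alternatives (limma adjusted p up to 0.148 and 0.118), and 4 of the 10 were lower and 1 higher after quantile normalization. Ccnb1 fell by 0.71, Cdc20 by 0.54, Cdk1 by 0.53 and Top2a by 0.31, whereas the replication clamp Pcna and the helicase subunit Mcm2 differed by 0.08 and -0.04 (limma adjusted p = 0.383 and 0.579). Pcna was the one that passed as higher after quantile normalization, at 0.17 (limma adjusted p = 0.0311). The proliferation gene Mki67 and the helicase subunit Mcm5 differed by 0.15 and -0.21 and did not pass (limma adjusted p = 0.264 and 0.0851). Mcm5 passed as lower without wild-type library 2 (limma adjusted p = 0.0245). Ccnb2, Ccna2, Pcna, Mcm2, Mki67 and Mcm5 were named with their values known. The part of a shift in cell cycle phase in the kinesin differences was not tested.

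Markers of monocytes and macrophages were lower in the same libraries. The 2 markers reported here, Csf1r and Cd68, both fell, and 0 of the 2 were listed at 0. Their summed level on the log2 scale was 12.01 to 12.03 in the wild type and 10.59 to 11.05 in the Prmt6-/- libraries. Of 5 markers of maturing neutrophils 1, Camp, rose, by 0.97, and their summed level was 9.85 to 10.08 against 9.71 to 10.80. The others, S100a8, S100a9, Ltf and Mmp9, had differences of -0.14, -0.41, 0.08 and -0.04 and did not pass. Without Prmt6-/- library 3 S100a8 and S100a9 passed as lower, at -0.45 and -0.72 (limma adjusted p = 0.0157 and 0.00384). The Camp call was lost without wild-type library 1, 2 or 3 (limma adjusted p = 0.0563, 0.0605 and 0.0843) and in limma without trend (0.0719). The T cell, B cell, erythroid and megakaryocyte lists had summed levels of at most 5.82 in any library, and Trac was listed at 0 in all. Among their tested genes Cd3d and Klf1 passed as higher, at 0.44 and 0.22, and 0 as lower. The Klf1 call was lost without wild-type library 1 (limma adjusted p = 0.0537) or 3 (0.0543) and without Prmt6-/- library 2 (0.0602). The part of these cells in the kinesin differences was not tested.

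**Figure D5:**
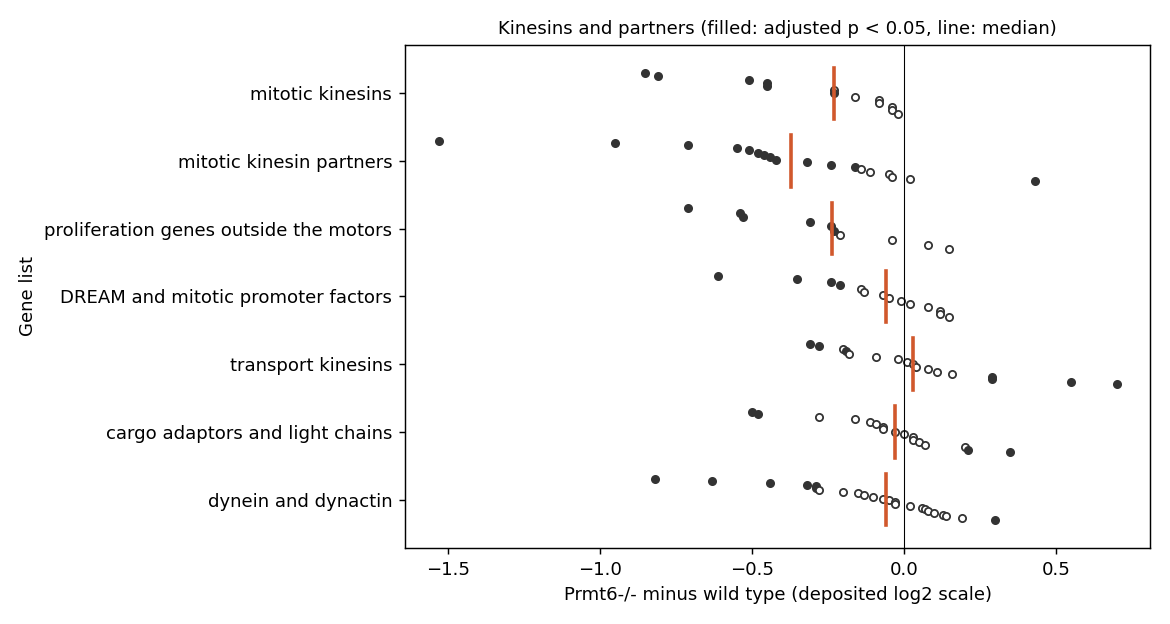
Difference between Prmt6-/- and wild type (horizontal axis, deposited log2 scale) for each tested gene of 7 lists, filled where the limma adjusted p was under 0.05, with the median of each list as an orange line. The medians lie at -0.23 for the mitotic kinesins and -0.37 for their partners, and at 0.03 for the transport kinesins, -0.03 for cargo adaptors and light chains and -0.06 for dynein and dynactin.

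Cargo adaptors and light chains of the transport kinesins went both ways. Of 17 tested genes 2 fell and 2 rose, a share of 11.8% each way, near the background of 18.0% and 15.0%, with a median of -0.03. Klc1, the light chain that links Kif5b to its cargo, stood at 10.36, 10.28 and 10.29 in wild-type cells and at 9.78, 9.81 and 9.86 in Prmt6-/- cells and fell by 0.50 (limma adjusted p = 0.000209). Arl8a, a small GTPase that couples lysosomes to kinesin-1, fell by 0.48 (limma adjusted p = 0.0144), a call that was lost without Prmt6-/- library 1 (0.0551). Rhot2, a mitochondrial GTPase that anchors the motor, rose by 0.35 (limma adjusted p = 0.00944). The mitochondrial adaptor Trak2 rose by 0.21 (limma adjusted p = 0.0414), a call lost without wild-type library 1 (0.102) or 2 (0.128) and without Prmt6-/- library 1 (0.131), 2 (0.0561) or 3 (0.0729). It was also lost with the replicate number as a block (0.0532), without the low-value filter (0.0569), after intensity-dependent centring (0.0501) and in the authors' deposited table (0.0684).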

How the data were processed

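L-GMP cells from wild-type and Prmt6-/- leukaemia were profiled by poly(A) RNA-seq in 3 libraries per genotype. Tools named in the submitters' processing notes are Trim Galore, kallisto and HOMER, with GRCm38 as the build and no versions. The HOMER differential expression command wrote the table, per the file header. The authors deposited log2 values already normalized between samples by a transformation that the file does not name, and the deposited table also holds the authors' log2 fold change, p-value and adjusted p-value from an unnamed test. Depth is unknown, so no counting interval is given. One row without a name (0.00333% of rows) was left out.

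The genotype comparison used limma 3.58.1 (R 4.3.3, mean-variance trend, two-sided) on the values as deposited. A pseudocount was foreseen only for linear values and was not used. A gene was tested if 3 or more libraries reached a value of 1, and p-values were adjusted over all 15454. The fit was tested on simulated data. Values are not per transcript length, so no order of levels between genes is drawn; gaps between paralogues serve only for their change between genotypes. The counting is not stated to use strand, so reads of overlapping opposite-strand genes cannot be told apart. Positions are from GENCODE M21 (GRCm38), promoters from RefSeq (GRCm38.p6).

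Every kinesin row is named, and of each other list up to 4 members with the smallest p; any other gene was picked with its value known. One listed marker gene is not reported here. The members, roles and lists were chosen with earlier results of these data known. Alternatives were other filters and normalizations, limma without trend, the replicate number as a block, each library left out, the authors' test and other role assignments.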

Additional observations from a re-analysis of the deposited data

How the results depend on the processing

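The counts of kinesins called lower and higher, and of mitotic kinesins called either way, stayed within 1.5 times their value in every alternative where they were counted. With Kif2a and Cenpe counted as mitotic, 7 mitotic kinesins were lower. The number called higher was not counted under that assignment, and Kif2a itself passed as higher (0.40, limma adjusted p = 0.00133). The median difference of mitotic kinesins (-0.227) was -0.147 after quantile normalization, -0.179 after intensity-dependent centring and -0.263 on the authors' deposited fold changes, and -0.223 to -0.158 with 1 library left out. The median of transport kinesins (0.033) was -0.006 with the stricter filter of 5, -0.001 after quantile normalization, -0.002 after centring and 0.156 on the authors' deposited fold changes, and 0.007 to 0.06 with 1 library left out. Transport kinesins called lower numbered 1 to 3 with 1 library left out. Of the differences of single kinesins under these alternatives, 466 kept their direction and side of the threshold or did not pass in either fit, 13 lost the call and 6 gained it; Kif4 gained it in limma without trend (adjusted p = 0.0339). The cause of these shifts was not tested.

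Libraries with the same number are not stated to share anything but that number, and a shared preparation is unknown. Their deviations from the group means correlated at 0.0948, 0.0727 and 0.172, and 6 of 6 libraries correlated best with their own number. With the number as a block, a paired fit, 5074 genes were called in place of 5102, and 8 kinesins were lower and 7 higher. The median differences were -0.227 and 0.033 in that fit. Unknown depth and the shrinkage of low values limit what can be said of kinesins at low levels.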

Other observations

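Dynein and dynactin, the motor and its activator that move cargo towards microtubule minus ends, opposite to most kinesins, went both ways. Of 24 tested genes 6 fell and 1 rose, against 18.0% lower and 15.0% higher over all tested genes, with a median of -0.06. The share that fell lay near that background and within the 22.7% to 33.9% of the 4 upper bins of genes by value. After quantile normalization 6 were lower and 5 higher, with Dynll1, Dctn1, Dctn4 and Actr1b gained as higher at 0.18 to 0.23 (limma adjusted p = 0.0111 to 0.0399), and the median was 0.01. The intermediate chain Dync1i2 fell by 0.82, the light chain Dynlt3 by 0.63, and the dynactin subunits Dctn6 and Dctn2 by 0.44 and 0.29 (limma adjusted p between 8.12e-05 and 0.00452). The heavy chain Dync1h1, named after its value was seen, differed by -0.20 (limma adjusted p = 0.119).

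Of 14 tested genes for the DREAM complex and other factors of mitotic promoters 4 (28.6%) fell and 0 rose, against the same background, with a median of -0.06. The share that fell lay within the 22.7% to 33.9% of the 4 upper bins, where most of these genes lie. After quantile normalization 2 were lower and 2 higher. The pocket protein Rbl2 fell by 0.61 (limma adjusted p = 0.000284) and the MuvB subunit Lin52 by 0.35 (0.00641). Rbbp4, at -0.21, and the NF-Y subunit Nfyb, at -0.24, passed as lower, and both calls were lost after quantile normalization (limma adjusted p = 0.0577 and 0.0531), under which Lin37 and Nfyc passed as higher, at 0.23 and 0.19 (0.0291 and 0.0287). Foxm1 and Mybl2, activators of mitotic genes named after their values were seen, differed by -0.14 and -0.01 (limma adjusted p = 0.142 and 0.95).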
